A study of Drosophila melanogaster with 6 samples.

Results

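The immune deficiency (IMD) pathway and its peptidoglycan recognition genes were measured in the gut progenitors of adult Drosophila melanogaster females. They were taken as 10 named genes: PGRP-LC, PGRP-SD, PGRP-LB, PGRP-SC2, pirk, imd, Fadd, Dredd, key and Rel. All 10 were present among the 17806 named genes of the count table. The study sequenced rRNA-depleted RNA from GFP-positive progenitors sorted from guts, with 100 pooled flies behind each replicate and 6 days of rearing at 29 °C. The genotypes were 2, Patr1 and esgTS, and each had 3 libraries. By common usage esgTS names a temperature-sensitive driver in which the promoter of esg, active in stem cells and their undifferentiated daughters, switches on GFP and other transgenes. How Patr1 flies are altered in the gene Patr-1, and whether they also carry that driver, is not stated in the labels. The purpose given for the series was to identify transcripts regulated by P-bodies, granules in the cytoplasm where repressed mRNAs gather with decay factors. Patr-1 encodes a decapping activator of these granules.

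In flies the IMD pathway senses the peptidoglycan of mainly Gram-negative bacteria. The receptor PGRP-LC passes the signal through the adaptors imd and Fadd to the caspase Dredd and, by way of the kinase Tak1, to an IκB kinase complex that contains key. Cleavage of the NF-κB factor Relish, the product of Rel, then switches on antimicrobial peptide genes. In the gut the pathway is held down by amidases such as PGRP-LB and PGRP-SC2, which break peptidoglycan down, and by the inhibitor pirk.

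Library totals ran from 2035676 to 2958607 reads. Patr-1 itself stood at 35.8, 32.5 and 39.3 on the counts-per-million scale (CPM) in Patr1 replicates 1, 2 and 3, and at 206.7, 222.9 and 230.6 CPM in the esgTS replicates, which is 6.16-fold lower in Patr1. Markers of enterocytes, the absorptive cells, moved with genotype: all 7 listed passed the test as higher, with a summed level of 1260 to 1322 CPM in Patr1 and 393.7 to 441.7 in esgTS. Of 5 visceral muscle markers 2 (sls and bt) were higher, and the list's summed level was 113.0 to 139.5 CPM against 36.6 to 40.2. In Patr1 sls and bt made up most of that sum. The other 3, Mhc, Mlc2 and up, did not pass, with log2 fold changes of 0.29, 0.07 and -0.28. Of 7 hemocyte markers 3 (NimC1, eater and He) had 0 reads in all libraries and 2 (srp and crq) were lower, with summed levels of 228.3 to 231.6 and 292.3 to 331.2 CPM that srp and crq made up for the most part. The other hemocyte markers did not share that direction, with 15 reads of Hml in Patr1 against 2 in esgTS and a log2 fold change of 0.70 for Pxn (edgeR adjusted p = 0.189). Of 5 fat body markers Lsp2 had 0 reads and the list summed to 11.5 to 13.7 against 9.66 to 15.7 CPM. Of 7 enteroendocrine markers 2 (AstA and CCHa1) were higher, and the sums, in which AstC weighed most, overlapped at 112.6 to 233.7 and 187.7 to 212.2 CPM. Single markers varied within a genotype: Tk was at 21.7, 10.3 and 0.383 CPM and NPF at 41.4, 16.6 and 0.766 CPM in esgTS replicates 1, 2 and 3, and in Patr1 replicate 3 they were at 2.21 and 2.65 CPM. Of 5 progenitor markers 3 were higher and 1 lower, with sums of 3752 to 4297 and 3363 to 3570 CPM, and esg itself was abundant in both genotypes. Over all tested genes 25.5% passed as higher and 23.9% as lower. Only 6 of the enteroendocrine, 3 of the hemocyte and 1 of the fat body markers had enough reads to be tested. The part of these cell types in the changes below was not tested. In bulk samples fewer cells of a type and less RNA per cell cannot be told apart.

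Among the 10 genes 1 rose in Patr1 and 3 fell. PGRP-SD, a secreted recognition protein, was 2.7-fold higher, whereas the receptor gene PGRP-LC was 1.63-fold, the caspase gene Dredd 1.42-fold and the inhibitor gene pirk 1.30-fold lower. The other 5 tested genes (PGRP-LB, imd, Fadd, key and Rel) did not pass the threshold, and PGRP-SC2 had too few reads to enter the test. Calls used edgeR's quasi-likelihood test fitted over all 7927 genes that passed the filter on low counts, with Benjamini-Hochberg adjustment at 0.05. Of all tested genes 49.4% passed, 25.5% as higher and 23.9% as lower, so that 4 calls among 9 tested members lay near the background. The median log2 fold change of the tested members was -0.29, against 0.01 over all tested genes, and their median absolute change was 0.38 against 0.35. Without esgTS replicate 3 the median of the same 9 genes was -0.10 and their median absolute change 0.23. In 5 of the 9 the libraries of the genotypes did not overlap, 1 higher and 4 lower in Patr1. Of all tested genes 57.3% did not overlap, 29.6% as higher and 27.7% as lower.

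**Figure D1:**
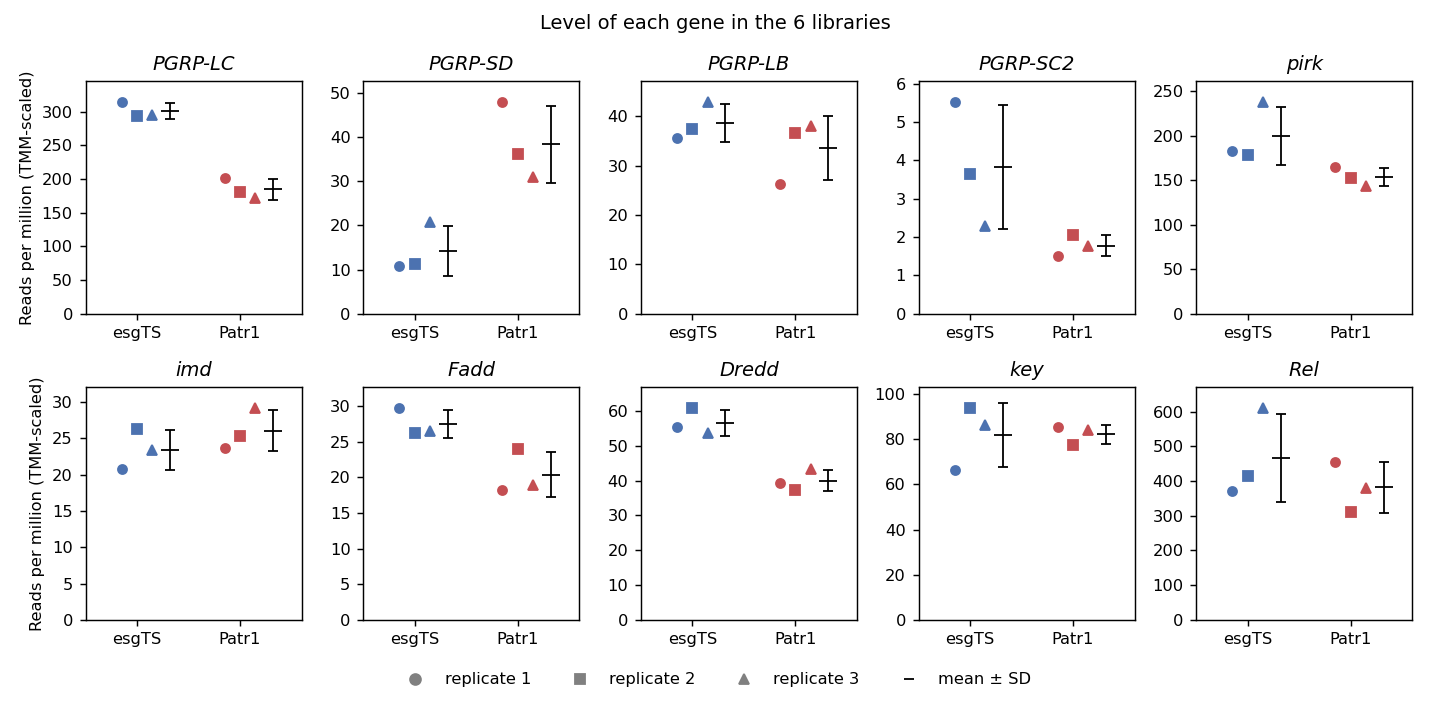
Level of each of the 10 genes in the 6 libraries, in TMM-scaled CPM on linear axes from 0 (blue, esgTS; red, Patr1; marker shape, replicate number; black, mean ± SD, n = 3). The Patr1 libraries lie above all esgTS libraries for PGRP-SD and below all of them for PGRP-LC, PGRP-SC2, pirk, Fadd and Dredd, and the genotypes overlap for PGRP-LB, imd, key and Rel. For PGRP-SC2, which was barely detected and not tested, the nearest libraries, Patr1 replicate 2 and esgTS replicate 3, both had 6 reads.

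PGRP-LC, the transmembrane receptor at the head of the pathway, was at 201.4, 181.1 and 171.3 CPM in Patr1 replicates 1, 2 and 3. In the esgTS replicates it was at 314.1, 293.6 and 294.5 CPM. Every Patr1 library lay below every esgTS library by a gap wider than the spread within either genotype. The means were 184.6 ± 15.4 and 300.7 ± 11.5 CPM (SD, n = 3 each), a log2 fold change of -0.71 ± 0.08 (SE, edgeR adjusted p = 2.37e-05). It had the smallest coefficient of variation of the 10 genes in esgTS, 3.84%. Gene counts do not separate the receptor isoforms that PGRP-LC is known to encode.

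PGRP-SD, whose secreted product is known to promote the sensing of peptidoglycan upstream of PGRP-LC, moved the other way. Its level was 47.9, 36.3 and 30.9 CPM in the Patr1 replicates. In esgTS it was 10.7, 11.3 and 20.7 CPM. The genotypes did not overlap, although esgTS replicate 3 held nearly double the level of the other esgTS libraries. On the log2 scale it was higher by 1.44 ± 0.25 (SE, edgeR adjusted p = 4.90e-04). It was the most variable of the tested members within a genotype, with a coefficient of variation of 39.4% in esgTS and 22.7% in Patr1.

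The amidase genes gave no calls. PGRP-LB, which encodes the main amidase that degrades peptidoglycan, measured 26.2, 36.6 and 38.0 CPM in Patr1 against 35.5, 37.5 and 42.9 CPM in esgTS. Only Patr1 replicate 1 lay clearly below the range of esgTS. Its log2 fold change was -0.18, with a 95% interval of -0.52 to 0.15 (edgeR adjusted p = 0.344). Without Patr1 replicate 1 it was -0.05. PGRP-SC2, another secreted amidase, was barely detected, with 3, 6 and 4 reads in the Patr1 replicates and 16, 11 and 6 in esgTS. Detection was taken to start at 3 reads, which corresponds to between 0.997 and 1.51 CPM depending on the library. The group totals of 13 and 33 reads give a ratio of 2.19 in favour of esgTS, with an exact 95% counting interval of 1.12 to 4.52, which covers counting error only and not the spread between libraries. With no filter on low counts its edgeR adjusted p was 0.107.

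The inhibitor gene pirk, whose product binds PGRP-LC and imd and is itself a target of the pathway, was at 164.5, 152.3 and 143.9 CPM in Patr1. In esgTS it was at 182.6, 178.7 and 237.8 CPM. The genotypes did not overlap, but the nearest libraries, Patr1 replicate 1 and esgTS replicate 2, lay close together. On the log2 scale the change was -0.38 ± 0.11 (SE, edgeR adjusted p = 0.0139). Without esgTS replicate 3 it was -0.23 (edgeR adjusted p = 0.063), and without Patr1 replicate 2 it was -0.37 (edgeR adjusted p = 0.0543), so the call for pirk depended on those libraries.

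The adaptors and the caspase that form the signalling complex differed in their calls. Dredd, the caspase that cleaves imd and Relish, measured 39.4, 37.3 and 43.3 CPM in Patr1 against 55.6, 60.8 and 53.6 CPM in esgTS. All Patr1 libraries were below all esgTS libraries, and replicates lay close together in both genotypes. The change came to -0.51 ± 0.11 in log2 (SE, edgeR adjusted p = 0.00267). Fadd, the adaptor that ties Dredd to imd, had 18.2, 24.0 and 19.0 CPM in Patr1 and 29.7, 26.2 and 26.4 CPM in esgTS. Its libraries did not overlap either, but Patr1 replicate 2 lay near the esgTS range. The log2 fold change of -0.41, with a 95% interval of -0.78 to -0.04, did not pass (edgeR adjusted p = 0.061), and it passed without Patr1 replicate 2 (-0.56, edgeR adjusted p = 0.037). The adaptor gene imd measured 23.7, 25.3 and 29.1 CPM in Patr1 against 20.7, 26.2 and 23.4 CPM in esgTS, which overlap. Its log2 fold change of 0.15 had a 95% interval of -0.21 to 0.51 (edgeR adjusted p = 0.472).

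The downstream genes key and Rel did not pass. The level of key, the regulatory subunit of the IκB kinase complex, was 85.3, 77.4 and 83.9 CPM in Patr1 and 66.3, 93.7 and 86.2 CPM in esgTS. The Patr1 libraries lay inside the wider esgTS range, and the 95% interval of the log2 fold change ran from -0.27 to 0.26 (edgeR adjusted p = 0.99). Rel, the NF-κB gene of the pathway, was at 454.7, 309.8 and 380.9 CPM in Patr1. In esgTS it was at 372.7, 414.9 and 609.7 CPM, with replicate 3 far above the other libraries. The genotypes overlapped, and the log2 fold change of -0.29 had a 95% interval of -0.67 to 0.09 (edgeR adjusted p = 0.185). Without esgTS replicate 3 it was -0.05 (edgeR adjusted p = 0.822). It passed without Patr1 replicate 1 (-0.43, edgeR adjusted p = 0.0416) and with no filter on low counts (-0.30, edgeR adjusted p = 0.00694). In the fit with no filter the size of the change hardly moved, unlike the p-value. There the edgeR adjusted p of PGRP-LC fell to 1.93e-12, at a log2 fold change of -0.72, while that of imd rose to 0.56.

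The library esgTS replicate 3 was the highest of its genotype for 4 of the 9 tested members, namely Rel, pirk, PGRP-SD and PGRP-LB. It was the highest for 34.4% of all tested genes. Patr1 replicate 1 was the highest of its genotype for 5 of the 9 tested members and for 33.5% of all tested genes. Without esgTS replicate 3 PGRP-SD had a log2 fold change of 1.79, PGRP-LC -0.72 and Dredd -0.54, and all of these still passed. PGRP-SC2 entered the test only in some of the alternative fits. Without esgTS replicate 3, its lowest esgTS library, it passed as lower, with a log2 fold change of -1.31 (edgeR adjusted p = 0.0366). It cleared the filter there only through the 16 and 11 reads of esgTS replicates 1 and 2, so that call adds no support for a decrease. Without Patr1 replicate 1 or Patr1 replicate 3 it did not pass (edgeR adjusted p = 0.143 and 0.138).

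In the authors' deposited table all 10 genes were listed and 4 had an adjusted p under 0.05, the same 1 higher and 3 lower, where 33.7% of that table's genes did. The authors' deposited table gave log2 fold changes of 1.42 for PGRP-SD, -0.72 for PGRP-LC, -0.53 for Dredd and -0.40 for pirk.

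Levels were compared between genes after division by the deposited gene length, as reads-per-kilobase-per-million values (RPKM). In esgTS the order of mean levels ran from Rel (133.1 RPKM) through pirk (108.2), PGRP-LC (80.3), key (57.7), Dredd (33.2), Fadd (23.6), PGRP-LB (21.8), PGRP-SD (19.7) and imd (15.4) to PGRP-SC2 (5.13). The ranges of neighbours overlapped for Rel and pirk, and from Fadd through PGRP-LB and PGRP-SD to imd. Other neighbours did not overlap in esgTS. Among the levels per length of all tested genes Rel lay at percentile 94.1 and imd at percentile 29.0. In Patr1 PGRP-SD (53.2 ± 12.1 RPKM) stood level with key (57.8 ± 2.98) and PGRP-LC (49.3 ± 4.10), with overlapping ranges. Its place thus went from the eighth to the fourth, and its percentile from 36.2 to 72.3. PGRP-LC went from the third to the fifth place, and from percentile 85.4 to 69.6.

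**Figure D2:**
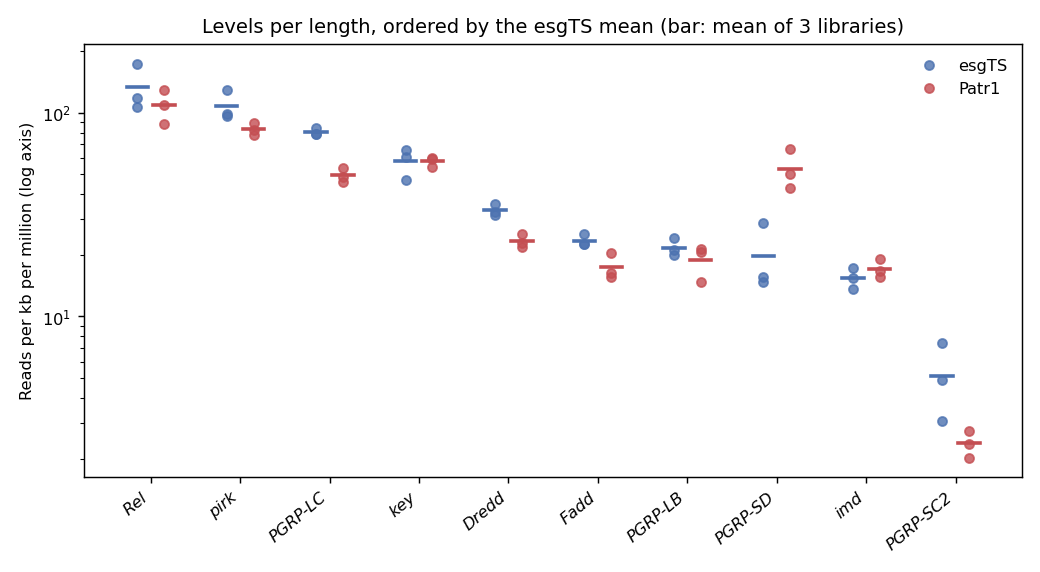
Levels per length of the 10 genes on a log axis (RPKM), ordered by the esgTS mean; points are the 6 libraries and bars the means of 3. PGRP-SD in Patr1 reaches the levels of key and PGRP-LC, and Rel and pirk are the highest in both genotypes.

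Ratios to PGRP-LC were also taken within each library, since such ratios do not depend on library scaling. The log2 ratio of PGRP-SD to PGRP-LC in CPM was -2.07, -2.32 and -2.47 in Patr1 replicates 1, 2 and 3 and -4.88, -4.70 and -3.83 in the esgTS replicates. The genotype means differed by 2.18. All Patr1 libraries were higher for PGRP-SD and lower for PGRP-LC, so the libraries could not overlap in this ratio. Its two-sided exact permutation test had to give p = 0.1, the smallest that 3 against 3 libraries allow. It therefore adds no support to the calls of these genes. For pirk to PGRP-LC the log2 ratio was -0.29, -0.25 and -0.25 in Patr1 and -0.78, -0.72 and -0.31 in esgTS, a difference of 0.34 (exact permutation p = 0.1). For PGRP-LB to PGRP-LC the difference was 0.49, with overlapping libraries (exact permutation p = 0.2). Adjusted over these 3 ratios, the exact permutation p-values were 0.15, 0.15 and 0.2.

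The other peptidoglycan recognition genes fell into a detected and an undetected set. Of 9, PGRP-LE, PGRP-LA and PGRP-LF were tested, and none passed in either direction by edgeR, with an unadjusted p of 0.234 or more, or with DESeq2. PGRP-LE, an intracellular sensor, averaged 61.7 ± 3.49 CPM in Patr1 and 61.3 ± 3.49 CPM in esgTS (SD), and the 95% interval of its log2 fold change was -0.21 to 0.22. PGRP-LA and PGRP-LF lie on either side of PGRP-LC in the BDGP6 annotation. PGRP-LA, the most abundant of the 9, measured 145.3, 134.5 and 108.6 CPM in Patr1 against 134.6, 135.2 and 150.5 CPM in esgTS (log2 -0.11, edgeR adjusted p = 0.391), so its libraries overlapped where those of PGRP-LC did not. PGRP-LF, whose product inhibits PGRP-LC, measured 30.8, 21.2 and 18.1 CPM in Patr1 against 19.0, 25.9 and 45.2 CPM in esgTS (log2 -0.37, edgeR adjusted p = 0.321). Without esgTS replicate 3 its log2 fold change was 0.04, and without esgTS replicate 1 it was -0.62. UGP, on the opposite strand, covers 44.4% of the exon bases of PGRP-LF, and the counting's strand setting was not stated.

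The remaining 6 had at most 6 reads in any library. PGRP-SB1 and PGRP-SB2 had 0 reads in all 6 libraries. PGRP-LD had 0 reads in Patr1 and 3 in esgTS, and other genes, chiefly Pmi on the same strand, cover 93.1% of its exon bases. PGRP-SC1b, an amidase gene beside PGRP-SC2, had 1 read in Patr1 and 13 in esgTS, and PGRP-SC1a had 1 and 6. Reads of PGRP-SC1a and PGRP-SC1b, which encode near-identical proteins, cannot be assigned with certainty. The ratio of esgTS to Patr1 for PGRP-SC1b was 11.2, with an exact 95% counting interval of 1.68 to 475.5, which covers counting error only. With no filter on low counts it passed as lower (edgeR adjusted p = 0.0266), a call that rests on 1 read against 13. The p-values of that fit differed from those reported, as given above for PGRP-LC.

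Antimicrobial peptide genes, the main transcriptional targets of Relish, were close to undetected in both genotypes. All 14 listed genes together had 23 reads in Patr1 and 19 in esgTS, or 5 to 9 reads per library, and no gene passed the filter on low counts. DptB, CecA1, CecB, CecC and Dro had 0 reads in all 6 libraries, and DptA had 1. Drs, the most abundant, had 3, 5 and 3 reads in Patr1 and 4, 2 and 5 in esgTS. A difference in these genes between the genotypes was not detectable at this depth.

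**Figure D3:**
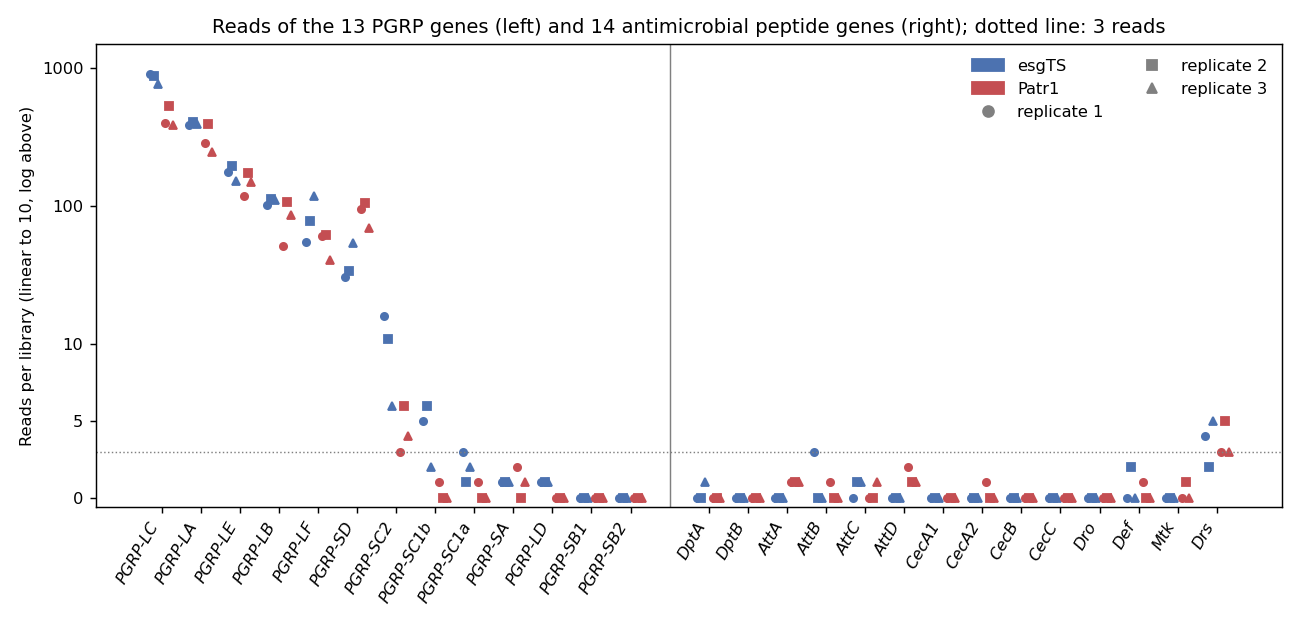
Reads per library for the 13 PGRP genes and 14 antimicrobial peptide genes, on an axis that is linear to 10 reads and logarithmic above (blue, esgTS; red, Patr1; marker shape, replicate number; dotted line, the floor of 3 reads). PGRP-LC, PGRP-LA, PGRP-LE, PGRP-LB, PGRP-LF and PGRP-SD have reads well above the floor in every library, and no antimicrobial peptide gene exceeds 5 reads in any library.

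Of 7 kinase and ubiquitin genes that act between Dredd and Relish, 1 rose and 2 fell, which lay near the background of 49.4% of all tested genes. Their median log2 fold change was -0.08. Tak1, the kinase that activates the IκB kinase complex, rose 2.12-fold. It measured 322.5, 323.5 and 340.3 CPM in Patr1 against 163.6, 160.4 and 140.6 CPM in esgTS (log2 1.08 ± 0.08 SE, edgeR adjusted p = 6.37e-07). Its partner Tab2 fell from 143.0 ± 9.65 CPM in esgTS to 107.7 ± 2.06 CPM in Patr1 (edgeR adjusted p = 0.00133). IKKbeta, the catalytic subunit that works with key, measured 75.2, 52.7 and 49.9 CPM in Patr1 against 132.9, 114.6 and 108.0 CPM in esgTS. It fell 2.02-fold (log2 -1.02 ± 0.14 SE, edgeR adjusted p = 7.37e-05). The genotypes did not overlap for any of these 3 called genes, which their selection by the test made likely. Of the other genes of this list Uev1A did not overlap either, while Diap2, ben and eff did. Among all tested genes 57.3% did not overlap. The sizes of the changes of Tak1 and IKKbeta exceeded that of PGRP-LC. The E3 ligase gene Diap2 and the E2 enzyme genes Uev1A, ben and eff did not pass, with log2 fold changes of -0.19, 0.24, -0.08 and 0.19. For Uev1A the adjusted p was 0.0539 by edgeR, and it passed with no filter, with upper quartile scaling, without Patr1 replicate 2 and with the replicate number as a block (edgeR adjusted p = 0.0183). The gene eff also passed without Patr1 replicate 2.

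Of 9 regulators of the pathway 2 rose and 3 fell, also near the background of 49.4%, with a median log2 fold change of -0.17. The POU-domain gene nub, an enterocyte factor known to repress Relish targets in the gut, rose from 37.1 ± 11.3 to 103.3 ± 10.5 CPM. It also stands among the enterocyte markers that were higher in Patr1. Gene counts do not separate isoforms, here as for PGRP-LC, so the product that rose is not known. The gene dnr1, which encodes an inhibitor of Dredd, measured 73.2, 69.5 and 62.7 CPM in Patr1 against 99.4, 119.6 and 156.6 CPM in esgTS (log2 -0.87 ± 0.15 SE, edgeR adjusted p = 4.06e-04). The deubiquitinase gene CYLD fell from 61.9 ± 3.24 CPM in esgTS to 45.0 ± 2.76 CPM in Patr1 (edgeR adjusted p = 0.0033). The Relish inhibitor gene casp was higher (log2 0.33, edgeR adjusted p = 0.0144) and POSH, a ligase that acts on Tak1, lower (log2 -0.26, edgeR adjusted p = 0.0389). The casp call was lost without Patr1 replicate 3 or esgTS replicate 1, and the POSH call in 8 of 14 alternatives. The genes trbd, scny, akirin and cad did not pass. As alternatives, scny passed as lower with library totals only and without Patr1 replicate 3 (edgeR adjusted p = 0.0469 and 0.0438), and cad without esgTS replicate 3 (log2 -0.33, edgeR adjusted p = 0.0118).

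**Figure D4:**
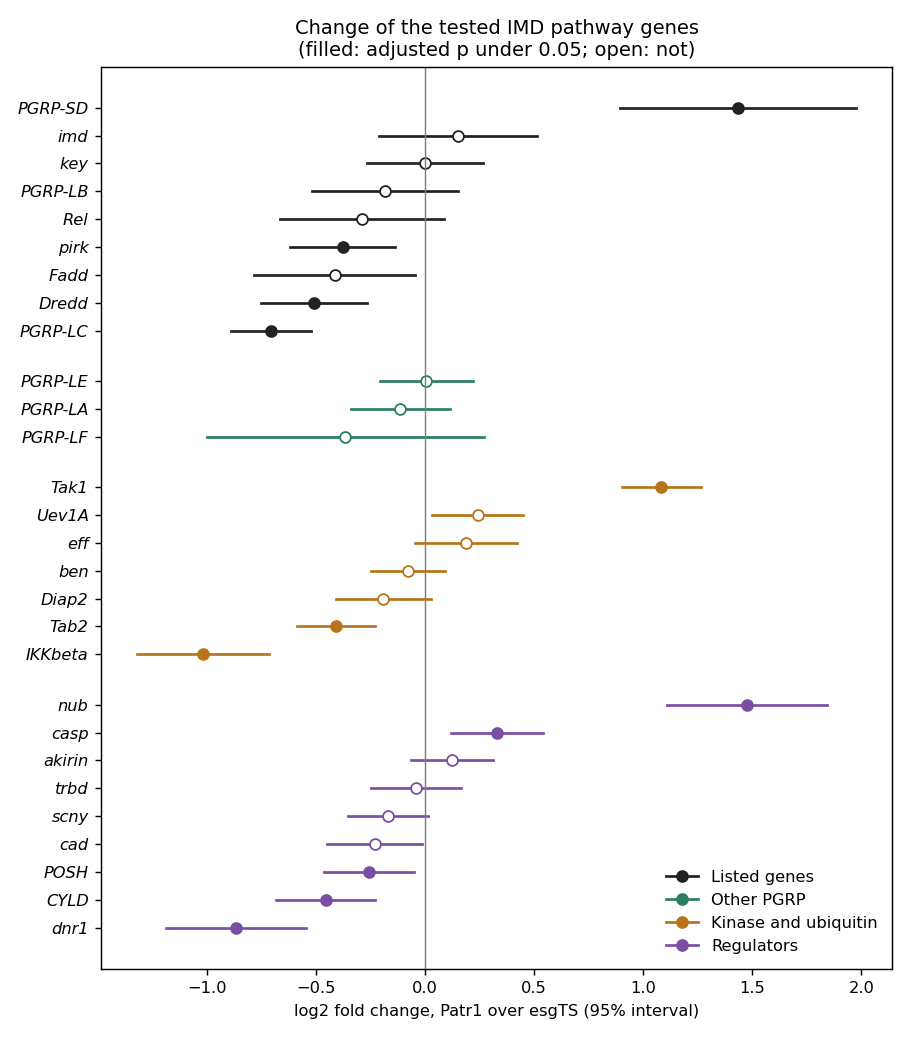
Log2 fold change of Patr1 over esgTS with its 95% interval for the 28 tested genes of the pathway, grouped by role (filled, edgeR adjusted p under 0.05; open, not). PGRP-SD, Tak1 and nub lie farthest to the right, at 1.44, 1.08 and 1.48, and IKKbeta, dnr1 and PGRP-LC farthest to the left, at -1.02, -0.87 and -0.71.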

How the data were processed

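Per the file headers, the deposited count table gives unnormalized reads for each gene and its length in base pairs. The authors' comparison table adds scaled counts, a signal obtained by multiplying every count of a library by 1 constant, as tested. Per the file headers, the authors' table also holds log2 fold changes and their errors, a Wald score, and p-values before and after adjustment. The submitters' processing notes list DESeq2, featureCounts, Subread 2.0.0, SAMtools 1.10, STAR 2.7.3a and cutadapt 2.9. Genome build, annotation and strand setting: not given in the sources used here. No coordinates are therefore printed. Deposited gene lengths equalled the exon lengths of the BDGP6 annotation for 99.2% of the 17018 names found there and for all 10 members, whose exon bases overlap other genes by at most 4.85%.

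Only raw counts were tested here, with the quasi-likelihood test of edgeR 4.0.16 (R 4.3.3), TMM factors, the default filter by group and Benjamini-Hochberg adjustment over all 7927 tested genes. CPM and RPKM use TMM-scaled library sizes. Standard errors are the log2 fold change over the square root of F. DESeq2 1.42.0, other scalings and filters, a replicate block and the omission of each library were alternatives. There was 1 row without a gene name, with up to 0.00296% of reads, which was left out. Replicates differed beyond sampling noise in all 6 within-genotype pairs, with a chi-square per degree of freedom from 2.45 to 4.34. Whether they came from separate collections is not stated, so p-values measure the spread between these libraries. The test was checked on simulated data. These had far fewer changed genes than were called here and the same spread between libraries for every gene. The check therefore does not cover changes as broad as those called here.

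The members and lists were chosen with earlier results of these data known. The text names all members, Patr-1, and up to 3 called genes of smallest p in each wider list, or the most abundant; other list genes were named after their values were seen. Remaining tables and plots used Python 3.11.15, matplotlib 3.10.9, pandas 2.3.3 and SciPy 1.17.1.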

Additional observations from a re-analysis of the deposited data

How the results depend on the processing

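Over 14 alternatives PGRP-SD, PGRP-LC and Dredd passed in all, with log2 fold changes of 1.26 to 1.79, -0.77 to -0.66 and -0.57 to -0.45, and pirk passed in 12 (-0.46 to -0.23). The members called were 1 higher in every alternative and 3 to 4 lower, though not always the same genes. Fadd took the place of pirk without Patr1 replicate 2, and PGRP-SC2 did so without esgTS replicate 3. PGRP-SC2 cleared the filter in that fit only through the remaining esgTS libraries. Of the members tested as reported, only PGRP-LC and Dredd were called lower there. Where 4 were lower, Rel was the added gene. Patr-1 ranged from -2.69 to -2.54, and over all genes 1611 to 2411 passed as higher and 1434 to 2174 as lower. The edgeR fits behind these counts held from 7525 to 13665 genes. With DESeq2 28.9% of 10536 genes passed, against 49.4% of 7927 with edgeR as reported. The members gave 1 higher and 3 lower in both, so their background depends on the method. Of the kinase and ubiquitin genes 2 passed as higher with upper quartile scaling, with no filter and with the replicate block, and 1 to 3 when single libraries were left out; the regulators gave 1 to 2 higher when single libraries were left out, and 2 to 4 lower over all alternatives. Of the other PGRP genes 1 passed as lower with no filter. The cause of these shifts was not tested. Same-numbered libraries deviated together by r of 0.05, 0.20 and -0.04 across genes for replicates 1, 2 and 3, and number 2 alone correlated best with its own number, so the libraries were taken to share only a number. With the replicate block 1999 genes passed as higher and 1902 as lower, against 2018 and 1896 without it. Scalings moved the median of all genes by -0.035 to 0.031 in log2. Keeping the row without a name, an alternative chosen after seeing the data, changed no member's call. Depth limits PGRP-SC2, 5 other PGRP genes and the antimicrobial peptide genes, which lay near the floor of 3 reads. PGRP-LD, which shares most of its exon bases with other genes, is not counted among these.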
